A study of Mus musculus with 48 samples.

Results

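The genes described here are 8 genes of fat oxidation and of the response to fatty acids through peroxisome proliferator-activated receptors (PPARs), namely Ppara, Cpt1a, Pdk4, Angptl4, Acadm, Plin2, Creb3l3 and Ucp2. They were chosen by name and all 8 passed the filter on low counts, among 15126 tested genes of 53465 in the table. The libraries were 48 RNA sequencing libraries of NeuroD1-positive cells, called EECs (enteroendocrine cells), from 17 lean mice of the strain Neurod1-cre-eYFP. In these mice Cre expressed from Neurod1 switches on a yellow fluorescent protein, and the CD45-negative fluorescent cells were sorted, so that any cell that had ever expressed Neurod1 could enter the sort. The regions were the upper small intestine (duodenum), the lower small intestine (ileum) and the colon with rectum (colon). The groups were sham-operated mice fed ad libitum (S_al, 5 libraries per region), sham-operated mice fed to match the weight of the VSG mice (S_wm, 5 per region) and mice with a vertical sleeve gastrectomy (VSG, 6 per region), in which about 70% of the stomach was removed. All the mice ate chow, were fasted overnight and were given glucose by gavage shortly before tissue collection, so that fasting was shared by the groups and there was no fed group.

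PPAR alpha, encoded by Ppara, is a nuclear receptor that binds fatty acids and, with a retinoid X receptor as partner, switches on genes of fatty acid uptake, oxidation and ketone body synthesis in the fasted state. Cpt1a carries out the entry of long-chain fatty acids into mitochondria, Acadm is the medium-chain acyl-CoA dehydrogenase, and Pdk4 blocks pyruvate dehydrogenase and so spares glucose. Angptl4 is a secreted inhibitor of lipoprotein lipase, Plin2 coats lipid droplets, Creb3l3 is a membrane-bound transcription factor of liver and small intestine, and Ucp2 is a carrier of the inner mitochondrial membrane.

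The depth was 4648651 to 17182463 counts per library (median 6713018). Of 7 markers of EECs none was at 0 in any region, and their summed level was 12033 to 99506 CPM (counts scaled to a common library size). Of 10 enterocyte markers none was at 0 either, and they summed to 4459 to 29720 CPM in duodenum, 3550 to 12068 CPM in ileum and 710.1 to 1129 CPM in colon libraries. The duodenum library of sham weight-matched mouse 27 stood apart, with the enterocyte sum of 29720 CPM and the EEC sum of 12033 CPM. Duodenum values of Creb3l3, Acadm and Fabp2 are given with and without it, and those of other list genes only with it. Ileum and colon of mouse 12 carry descriptions that contradict their tissue labels, and the labels were followed. By these labels the enterocyte sum of mouse 12 was 12068 CPM in the ileum and 1049 CPM in the colon library. Immune markers summed to at most 32.2 CPM and adipocyte markers to at most 1.33 CPM, with Adipoq and Retn at 0 counts in all duodenum libraries. In such bulk samples fewer cells of a type and less RNA per cell cannot be told apart.

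Promoter sequences of the PPAR genes were read from RefSeq (build GRCm38.p6), since the receptor binds repeats of the half-site AGGTCA. Of the 8 genes 7 had an entry, with Creb3l3 at 2 starts, and each window held 250 bases before and 50 after the start. The 4 stretches below are shown because they hold the half-site, written in capitals (TGACCT where it lies on the opposite strand), and each is given 5′ to 3′ on the strand of the gene.
Cpt1a, chr19:3323180-3323239, plus strand: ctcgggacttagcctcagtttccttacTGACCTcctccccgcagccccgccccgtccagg
Acadm, chr3:153944860-153944893, minus strand: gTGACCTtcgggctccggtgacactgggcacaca
Plin2, chr4:86670245-86670304, minus strand: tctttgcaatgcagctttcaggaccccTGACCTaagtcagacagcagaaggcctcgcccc
Creb3l3, chr10:81092761-81092806, minus strand: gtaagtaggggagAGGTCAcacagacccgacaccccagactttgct
The stretches are given only as far as they lie outside the annotated exons of their genes, and those of Cpt1a and Creb3l3 lay between exons inside the annotated gene. AGGTCA was present on either strand in 16.3% of 32851 promoter windows of this length. The direct repeat AGGNCANAGGNCA, which contains the half-site when its N is T, was in 0.381% of all windows and in none of the 8 windows of these genes. The cyclic AMP response element TGACGTCA was in 1.79% of all windows and in none of these, and the E-box CACGTG was in 7.15% and lay in the Plin2 window.

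Across the regions the 8 genes did not move as 1 group. Pdk4 was higher in the duodenum than in both other regions, Creb3l3 and Angptl4 were low in the colon, and Cpt1a, Acadm and Plin2 were highest there. In the contrast of ileum with duodenum 4 of the 8 passed the test, all lower in the ileum, beside 33.8% of all tested genes called (17.2% higher and 16.6% lower). In the contrast of colon with duodenum 7 of the 8 were called, 3 higher and 4 lower, beside 55% of all genes (26.8% higher and 28.3% lower). In the contrast of colon with ileum all 8 were called, 4 higher and 4 lower, beside 49.2% of all genes (23.8% higher and 25.4% lower). Calls were made with edgeR's quasi-likelihood test on the mean of the surgery groups, at a Benjamini-Hochberg adjusted p under 0.05, and levels below are CPM scaled by TMM with the SD over 16 libraries of a region.

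**Figure D1:**
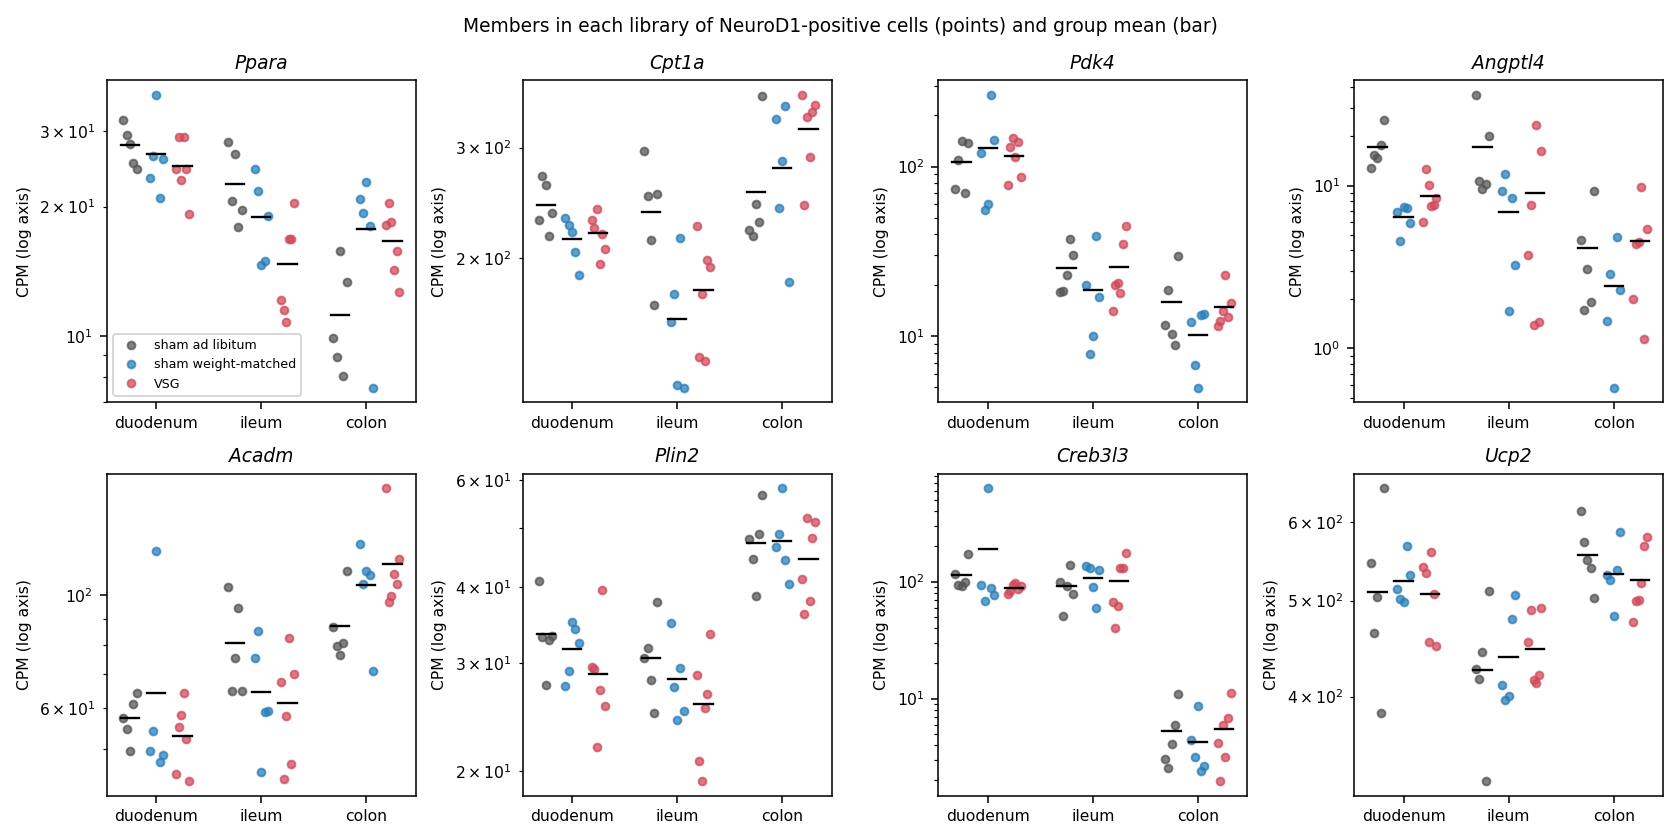
CPM of each gene on log axes in the 48 libraries, with regions along the horizontal axis, colours for the surgery groups, 1 point per library and a bar at each group mean. Pdk4 is high in the duodenum (55.8 to 264.4 CPM), Creb3l3 is low in the colon (1.98 to 11.2 CPM), and the surgery groups of a region mostly overlap.

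Ppara (chromosome 15, 85734983 to 85802819, plus strand, GRCm38) fell along the gut. It measured 26.3 ± 4.24 CPM in the duodenum, 18.5 ± 5.16 CPM in the ileum and 15.3 ± 4.82 CPM in the colon (SD, n = 16 each). The log2 fold change was -0.52 (SE 0.119, adjusted p = 0.00049, edgeR) for ileum against duodenum, with lower values in 12 of 15 mice that had both libraries. It was -0.83 (SE 0.120, adjusted p = 6.62e-08, edgeR) for colon against duodenum, with lower values in 15 of 15 mice. Colon and ileum differed by -0.31 (SE 0.121, adjusted p = 0.0326, edgeR), and this call was lost with no filter on low counts (adjusted p = 0.0577), with only those regions fitted (0.0742) and without mouse 12 (adjusted p = 0.0902 without its ileum and colon libraries). It was also lost without any of 7 other mice, S_al mouse 13, S_wm mice 16, 21 and 31 and VSG mice 25, 28 and 30, with estimates of -0.23 to -0.30.

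Among the 8 genes Pdk4 (chromosome 6, 5483351 to 5496309, minus strand) had the widest difference between duodenum and ileum. Its values ran from 55.8 to 264.4 CPM in the duodenum with a median of 116.7, from 7.87 to 44.9 CPM in the ileum with a median of 20.1, and from 4.99 to 29.7 CPM in the colon with a median of 12.7. The duodenum range did not overlap either of the others, and in each of 15 mice the duodenum was the higher. The log2 fold change was -2.35 (SE 0.223, adjusted p = 1.87e-11, edgeR) for ileum against duodenum and -3.12 (SE 0.233, adjusted p = 2.26e-15, edgeR) for colon against duodenum. The colon was lower than the ileum by a smaller step, -0.77 (SE 0.226, adjusted p = 0.00412, edgeR), and in 14 of 16 mice. With the second library index as a covariate this step was -0.63 and missed the threshold (adjusted p = 0.115, edgeR).

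Creb3l3 (chromosome 10, 81084324 to 81098874, minus strand) ranged from 68.3 to 626.7 CPM in the duodenum (median 92.7), from 40.2 to 173.8 CPM in the ileum (median 95.6) and from 1.98 to 11.2 CPM in the colon (median 4.12). Without the duodenum library of mouse 27, which gave the 626.7 CPM, the duodenum was at 95.2 ± 24.05 CPM (SD, n = 15) with a highest value of 172.7 CPM. The colon lay below both parts of the small intestine in every mouse, 15 of 15 against the duodenum and 16 of 16 against the ileum. The log2 fold changes were -4.68 (SE 0.316, adjusted p = 1.74e-16, edgeR) against the duodenum and -4.36 (SE 0.313, adjusted p = 2.08e-15, edgeR) against the ileum. Enterocyte markers were lower in the colon as well, 9 of 10 past the threshold with a median log2 fold change of -3.85 against the duodenum, and their part in the Creb3l3 result was not tested. Ileum and duodenum differed by -0.32 (95% interval -0.83 to 0.20), and by 0.09 without the duodenum library of mouse 27. With the second library index as a covariate the ileum was lower than the duodenum (-1.36, adjusted p = 0.0166, edgeR).

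Angptl4 (chromosome 17, 33773750 to 33781830, minus strand) measured 10.6 ± 5.51 CPM in the duodenum, 10.9 ± 9.32 CPM in the ileum and 3.75 ± 2.70 CPM in the colon (SD, n = 16 each). These values rest on few reads, 3 to 47 per library in the colon and 8 to 255 in the ileum. The colon was lower than both, with log2 fold changes of -1.48 against the duodenum (SE 0.324, adjusted p = 0.000133, edgeR) and -1.52 against the ileum (SE 0.326, adjusted p = 0.000125, edgeR). Between ileum and duodenum the difference was 0.04 with a 95% interval of -0.57 to 0.65.

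Acadm, Plin2 and Cpt1a had their highest level in the colon. Acadm (chromosome 3, 153922357 to 153944632, minus strand) measured 57.9 ± 18.3 CPM in the duodenum, 68.4 ± 17.2 CPM in the ileum and 103.1 ± 22.5 CPM in the colon (SD, n = 16 each), and the colon was higher than the duodenum in 14 of 15 mice and than the ileum in 14 of 16. Its log2 fold change was 0.81 (SE 0.114, adjusted p = 3.75e-08, edgeR) for colon against duodenum and 0.57 (SE 0.114, adjusted p = 3.71e-05, edgeR) for colon against ileum. Without the duodenum library of mouse 27 (122.0 CPM, against 47.1 to 54.3 CPM in the other 4 of its group), Acadm was also higher in the ileum than in the duodenum (0.36, adjusted p = 0.00226, edgeR), where all libraries gave 0.24 (adjusted p = 0.105). Its duodenum level was then 53.6 ± 6.64 CPM (SD, n = 15).

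Plin2 (chromosome 4, 86648386 to 86670060, minus strand) was at 31.2 ± 4.99, 28.1 ± 4.97 and 46.4 ± 6.42 CPM in duodenum, ileum and colon (SD, n = 16 each). The colon exceeded the duodenum in 15 of 15 mice (0.57, SE 0.0838, adjusted p = 9.72e-08, edgeR) and the ileum in 16 of 16 (0.72, SE 0.0847, adjusted p = 4.38e-10, edgeR). Cpt1a (chromosome 19, 3322334 to 3385733, plus strand) was at 224.9 ± 21.4, 190.6 ± 50.003 and 286.9 ± 61.5 CPM. It was 0.33 higher in the colon than in the duodenum (SE 0.0912, adjusted p = 0.00176, edgeR) and 0.59 higher than in the ileum (SE 0.0916, adjusted p = 4.50e-07, edgeR). Its lower level in the ileum than in the duodenum (-0.25, SE 0.0913, adjusted p = 0.0272, edgeR) missed the threshold without S_wm mouse 16, VSG mouse 22 or S_al mouse 24 (adjusted p = 0.0514, 0.0504 and 0.0558) and with the library index as a covariate (-0.42, adjusted p = 0.110).

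Markers of colonocytes and goblet cells were also higher in the colon, where these 3 genes were highest. Summed markers of enterocytes, crypt and Paneth cells were lower there. Their medians were 5761, 1122 and 193.2 CPM in duodenum and 909.4, 110.7 and 15.7 CPM in colon libraries. Tuft cell markers had medians of 21.4 CPM in duodenum and 36.0 CPM in colon libraries. Of 6 colonocyte markers 5 were higher and 1 lower in colon than duodenum (median log2 fold change 2.95), and they summed to 82.1 to 360.2 CPM in duodenum, 105.2 to 284.1 CPM in ileum and 518.2 to 1777 CPM in colon libraries. Of 6 goblet cell markers 4 were higher and 1 lower (median 2.29), with sums of 2557 to 5948 CPM in duodenum and 2948 to 13806 CPM in colon libraries. The part of any of these cell types in the results of Cpt1a, Acadm and Plin2 was not tested.

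Ucp2 (chromosome 7, 100493337 to 100502020, plus strand) varied least between regions, at 512.9 ± 59.4, 437.7 ± 48.3 and 536.5 ± 39.9 CPM (SD, n = 16 each). It was lower in the ileum than in the duodenum (-0.23, SE 0.0650, adjusted p = 0.00431, edgeR) and higher in the colon than in the ileum (0.30, SE 0.0650, adjusted p = 0.000139, edgeR). Colon and duodenum differed by 0.07 with a 95% interval of -0.06 to 0.20. Ucp2 shares 305 of 6989 exon bases with Dnajb13 on the opposite strand, which had 21 counts in all libraries together beside 173504 for Ucp2.

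**Figure D2:**
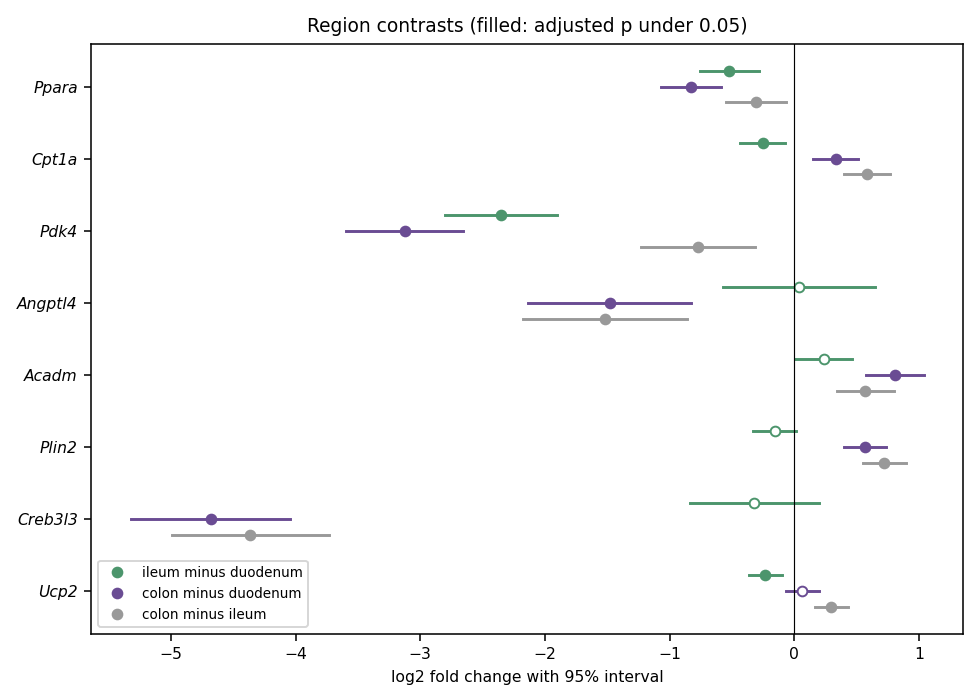
Log2 fold change of each gene between regions, averaged over the surgery groups, with 95% intervals along the horizontal axis, filled where the adjusted p was under 0.05. Creb3l3 in the colon (-4.68 and -4.36) and Pdk4 outside the duodenum (-2.35 and -3.12) lie far from 0, and Cpt1a, Acadm and Plin2 lie above 0 for both colon contrasts.

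The second library index partly followed the region, with 12 duodenum libraries and no other on D502, and 11 of the 12 libraries on D504 from the colon. The library of mouse 12, with its contradictory description, was the sole colon library to share an index with duodenum libraries. Index and region could thus hardly be separated between colon and duodenum, and calls kept or lost there do not tell them apart. With this index as a covariate 3 of the 8 genes remained called between colon and duodenum, namely Ppara (-1.32), Pdk4 (-2.80) and Creb3l3 (-5.60). Cpt1a was then at 0.10, Angptl4 at -1.30, Acadm at 0.51 and Plin2 at 0.38, with adjusted p-values of 0.768, 0.163, 0.0950 and 0.131 in edgeR.

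Per kilobase of exon, which allows genes to be set side by side, Ucp2 was the highest of the 8 in each region, at 73.4 ± 8.50, 62.6 ± 6.92 and 76.8 ± 5.71 CPM per kb in duodenum, ileum and colon (SD, n = 16). In the duodenum Creb3l3 (42.6 ± 44.7), Pdk4 (33.3 ± 14.5) and Cpt1a (29.4 ± 2.80) followed, and these neighbours did not differ beyond their spread. Without the duodenum library of mouse 27 Creb3l3 was at 31.6 ± 7.97 CPM per kb and came after Pdk4 (34.4 ± 14.3). In the colon the next were Cpt1a (37.5 ± 8.04), Acadm (26.4 ± 5.75) and Plin2 (13.2 ± 1.83), while Creb3l3 (1.68 ± 0.981) and Angptl4 (1.06 ± 0.763) were the lowest and overlapped each other. Ppara itself stood at 3.98 to 6.86 CPM per kb.

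Other genes of the pathway were taken from lists by role, in which 92 of 104 genes were tested, and 31, 64 and 53 of them (33.7%, 69.6% and 57.6%) were called in ileum against duodenum, colon against duodenum and colon against ileum, beside 33.8%, 55% and 49.2% of all genes. All values of list genes are from the fit without the library index as covariate. Among the regulators 6 of 10 tested were higher and 2 lower in colon than duodenum. Pparg, the PPAR of adipocytes and colonic epithelium, was higher in the colon by 2.61 (SE 0.194, adjusted p = 4.21e-16, edgeR) against the duodenum, and Lpin1, a coactivator and phosphatidate phosphatase, by 0.88. In mitochondrial oxidation 4 of 18 were higher and 4 lower, with Acads, the short-chain dehydrogenase, at 1.83 and Eci2, an enoyl-CoA isomerase, at -0.67. Against the ileum Slc25a20, the carnitine carrier that works with Cpt1a, was higher in the colon by 1.21.

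In peroxisomal and omega oxidation the colon had 9 of 13 below the duodenum and none above. The lower ones included Cyp4a10, a fatty acid omega-hydroxylase (-5.23), and Crot, the carnitine octanoyltransferase of peroxisomes (-1.19). Of genes of uptake and activation 10 of 13 were lower and 2 higher, with the fatty acid binding protein Fabp1 at -7.74 (SE 0.434) and the acyl-CoA synthetase Slc27a2 at -3.22 (SE 0.118). Of genes of the lipid droplet 7 of 11 were lower and 2 higher, with Dgat1, which makes triglyceride, at -2.53 and Cidec at -2.89. The medians of the lists were -1.19 for uptake and activation and -1.37 for the lipid droplet, beside -0.01 over all tested genes. The enterocyte markers were lower in the same contrast (9 of 10, median -3.85), and their part in these lists was not tested.

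In the pyruvate switch list 4 of 9 were higher and 2 lower in the colon. Of the pyruvate dehydrogenase kinases in it Pdk3 was lower (-1.65, SE 0.0937) and Pdk1, named after its value was seen, was higher (0.69, SE 0.0944), and the phosphatase Pdp1 was higher by 1.54. In the lipase list, which holds the target of Angptl4, 3 of 6 were higher and 2 lower. Lpl, the lipase that Angptl4 inhibits, was higher in the colon than in the duodenum by 1.35 (SE 0.220) and than in the ileum by 2.46 (SE 0.236). It was lower in ileum than in duodenum (-1.11). Lipc, of the same list, was lower in colon than duodenum (-3.70, SE 0.448), at means of 0.354 and 4.30 CPM. In the list of the Creb3 family and a target 2 of 5 tested were higher and 2 lower in colon than duodenum. Creb3l1 (1.72) and Creb3l4 (3.22) were the higher ones, and Creb3l2 (-1.67) and the apolipoprotein gene Apoa4 (-7.10), both named after their values were seen, the lower ones. Fgf21, Cpt1b, Plin5, Ucp1 and Ucp3 were among the 12 list genes too low to be tested.

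**Figure D3:**
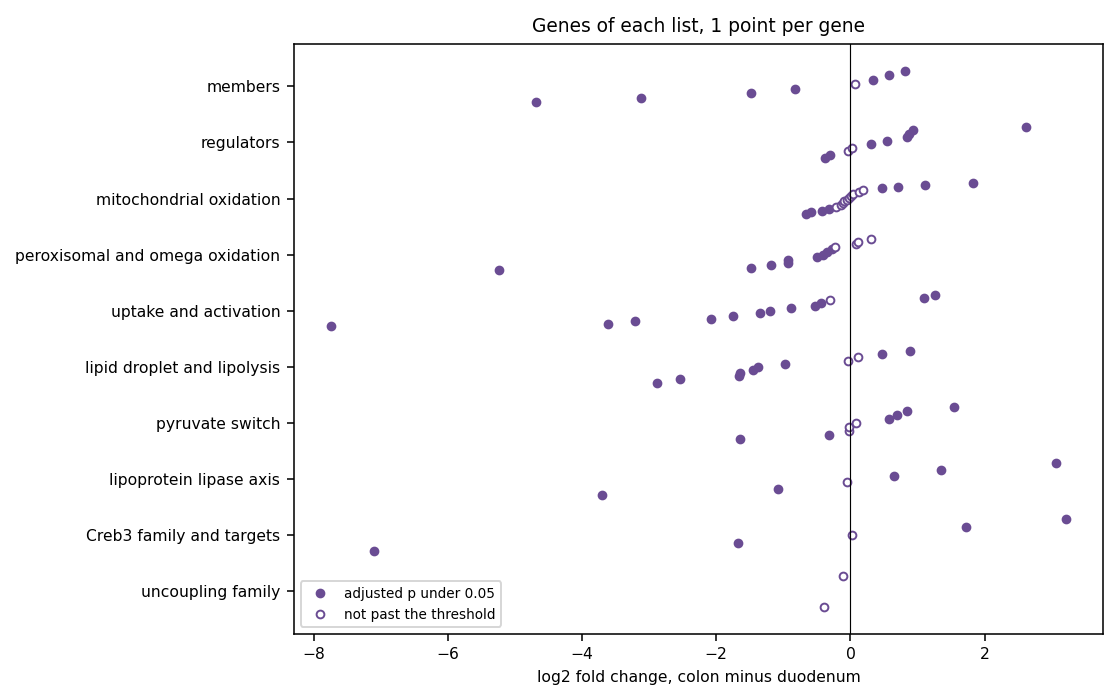
Log2 fold change between colon and duodenum of the tested genes of the lists shown, 1 point per gene in rows by role, filled where the adjusted p was under 0.05. The uptake list reaches -7.74 (Fabp1), and the peroxisomal list has 9 of 13 genes called lower.

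Between the surgery groups none of the 8 genes passed the test in any contrast, whether averaged over the regions or within a region. Over all genes 0% were called for VSG against S_al on the mean of the regions and 0% within each region. For VSG against S_wm 0.245% were called on the mean, 0.225% in duodenum, 0.0463% in ileum and 0.0595% in colon. For S_wm against S_al 0.0529% were called on the mean, 0% in duodenum, 0% in ileum and 0.0132% in colon. These counts moved with the setting, from 34 genes for VSG against S_wm in the duodenum to 0 without the duodenum library of mouse 27 and to 201 in DESeq2. For VSG against S_al on the mean of the regions, 837 of 15126 tested genes had an unadjusted p under 0.05 in edgeR. Chance alone would put a share of about 0.05 of the tested genes under this limit, and none passed after adjustment. DESeq2 and limma voom also called none of the 8 in any surgery contrast.

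**Figure D4:**
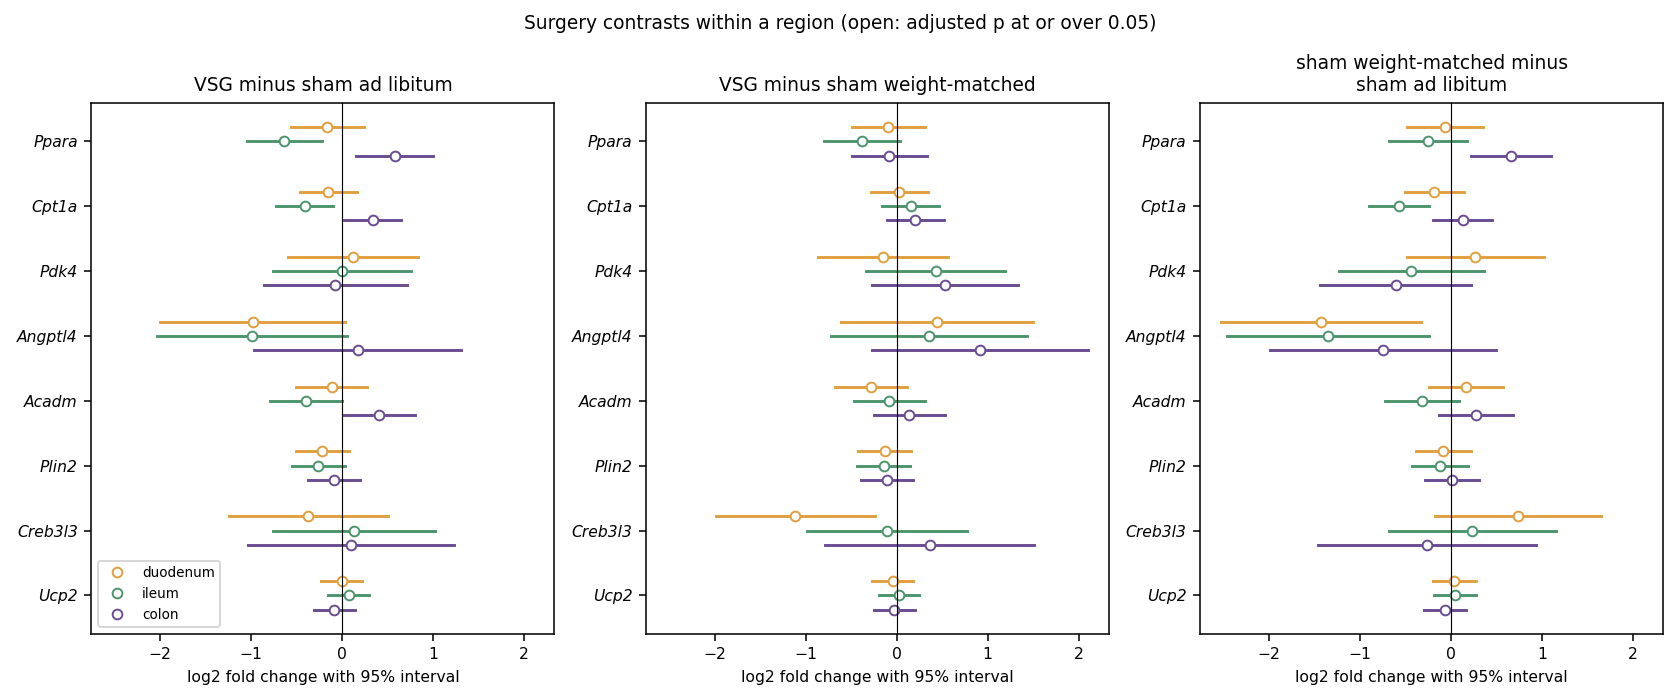
Log2 fold change of each gene between surgery groups within a region, with 95% intervals, 1 panel per contrast and colours for the regions. All points are open, since no adjusted p was under 0.05, and Angptl4 has the widest shift below 0 in sham weight-matched against sham ad libitum mice (-1.43 in the duodenum and -1.35 in the ileum).

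Angptl4 had the largest estimate between the sham groups. In the duodenum its values in S_al mice 12, 13, 17, 19 and 32 were 12.8, 15.4, 14.7, 17.7 and 25.3 CPM. In S_wm mice 16, 21, 27, 29 and 31 they were 6.89, 4.60, 7.37, 7.30 and 5.88 CPM, and in the 6 VSG mice they ran from 5.96 to 12.7 CPM with a median of 7.97. All sham ad libitum libraries thus lay above every library of the other groups. The gap was narrow, from 12.65 CPM in the highest VSG to 12.78 CPM in the lowest S_al library. Angptl4 was the only 1 of the 8 genes with ranges that did not overlap in that region, in S_wm against S_al (0.496% of all tested genes) and in VSG against S_al (0.542%), and VSG and S_wm overlapped (0.529% of all genes did not).

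The log2 fold change of Angptl4 in the duodenum was -1.43 (SE 0.545, adjusted p = 0.619, edgeR) for S_wm against S_al and -0.98 (95% interval -2.001 to 0.036) for VSG against S_al. In the ileum S_al ranged from 9.57 to 36.0 CPM, S_wm from 1.70 to 11.7 CPM and VSG from 1.39 to 23.7 CPM, so that the groups overlapped, with -1.35 (SE 0.548, adjusted p = 0.573, edgeR) for S_wm against S_al. In the colon the estimate was -0.74 with an interval of -1.99 to 0.50. Averaged over the regions the estimate for S_wm against S_al was -1.17 (SE 0.329, unadjusted p = 0.0009, adjusted p = 0.475, edgeR), which missed the threshold.

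Ppara and Cpt1a had their lowest unadjusted p-values in ileum and colon. In the ileum Ppara ranged from 17.9 to 28.2 CPM in S_al, from 14.6 to 24.5 CPM in S_wm and from 10.7 to 20.3 CPM in VSG mice, and S_al and VSG overlapped. VSG differed from S_al by -0.64 (SE 0.206, adjusted p = 0.519, edgeR). In the colon S_al ranged from 8.06 to 15.7 CPM, S_wm from 7.57 to 22.8 CPM and VSG from 12.6 to 20.4 CPM. There VSG differed from S_al by 0.58 (SE 0.210, adjusted p = 0.710, edgeR) and S_wm from S_al by 0.66 (SE 0.218, unadjusted p = 0.00408, adjusted p = 0.999996, edgeR).

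Cpt1a in the ileum measured 236.7 ± 48.3 CPM in S_al (SD, n = 5), 159.7 ± 38.0 CPM in S_wm (n = 5) and 178.0 ± 34.8 CPM in VSG mice (n = 6). S_wm differed from S_al by -0.57 (SE 0.163, adjusted p = 0.385, edgeR) and VSG from S_al by -0.41 (SE 0.155, adjusted p = 0.653, edgeR), while in the colon VSG differed from S_al by 0.33 (SE 0.156, adjusted p = 0.777, edgeR). Acadm followed the same signs for VSG against S_al, with -0.40 (SE 0.195) in the ileum and 0.41 (SE 0.195) in the colon. The joint test of surgery by region gave adjusted p-values of at least 0.979 for the 8 genes, with 0% of all genes called.

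The differences of a surgery contrast between regions were also tested singly, a choice made after the values were seen. The change of Ppara with VSG against S_al was 1.21 higher on the log2 scale in the colon than in the ileum (SE 0.294, unadjusted p = 0.000149, adjusted p = 0.376, edgeR). For Cpt1a the same difference was 0.75 (SE 0.220, adjusted p = 0.497, edgeR) and for Acadm 0.81 (SE 0.275, adjusted p = 0.497, edgeR). None of the 8 genes passed in any of these 9 tests, in each of which 0% of all genes were called. VSG, S_al and S_wm contrasts share libraries, so that their values are set side by side and not compared further.

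In the remaining regions ranges overlapped for all 8 genes, beside shares of genes without overlap of 0.549% (VSG against S_al in the ileum), 0.41% (the same in the colon), 0.549% (VSG against S_wm in the ileum), 0.443% (the same in the colon), 1.51% (S_wm against S_al in the ileum) and 0.456% (the same in the colon). On the mean of the regions Plin2 was at -0.19 for VSG against S_al (SE 0.0829, adjusted p = 0.792, edgeR) and Cpt1a at -0.21 for S_wm against S_al (SE 0.0939, adjusted p = 0.770, edgeR). Pdk4 had wide intervals, for VSG against S_al from -0.42 to 0.45 on the mean of the regions, and Ucp2 narrow ones, from -0.13 to 0.12.

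Creb3l3 in the duodenum rested on 1 library. S_wm mice 16, 21, 29 and 31 had 93.9, 68.3, 88.3 and 76.1 CPM and mouse 27 had 626.7 CPM, whereas S_al mice had 92.0 to 172.7 CPM and VSG mice 77.6 to 96.5 CPM. VSG differed from S_wm by -1.11 (SE 0.433, adjusted p = 0.334, edgeR) with that library and by 0.11 without it. Of the 92 tested list genes 1 was called in a surgery contrast, Fabp2, the intestinal fatty acid binding protein, lower in VSG than in S_wm in the duodenum (-2.36, SE 0.532, adjusted p = 0.0463, edgeR). Without the duodenum library of mouse 27 this call was lost (-0.89, SE 0.428, adjusted p = 1, edgeR). Fabp2 measured 2757 CPM in mouse 27 and 217.7 to 342.0 CPM in the other 4 S_wm mice, beside 103.8 to 200.1 CPM in VSG and 257.4 to 519.3 CPM in S_al mice.

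Within a region the 8 genes were also compared over the 16 mice, with surgery groups pooled, by Pearson's r and Spearman's rho with permutation p-values adjusted over 84 pairs and regions. By r 7 pairs passed and by rho 6, of which 5 passed by both. In the colon Cpt1a and Acadm rose together (r = 0.83, permutation p = 6e-05, adjusted p = 0.00504, rho = 0.80, rho permutation p = 0.00038, adjusted 0.0319, r = 0.74 without the 2 libraries farthest from the median). Plin2 and Creb3l3 did so in the colon (r = 0.76, permutation p = 0.00078, adjusted p = 0.0274, rho = 0.77, rho permutation p = 0.0009, adjusted 0.0378, r = 0.71 without 2 libraries), and Angptl4 and Acadm in the ileum (r = 0.71, permutation p = 0.00195, adjusted p = 0.0363, rho = 0.74, rho permutation p = 0.00154, adjusted 0.0417, r = 0.67 without 2). Ppara and Ucp2 went in opposite directions in the colon (r = -0.69, permutation p = 0.00342, adjusted p = 0.0445, rho = -0.72, rho permutation p = 0.00204, adjusted 0.0417, r = -0.73 without 2).

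For the other 3 pairs r fell without 2 libraries, for Acadm and Creb3l3 in the duodenum from 0.90 to 0.61, for Ppara and Acadm there from 0.70 to 0.34, and for Pdk4 and Angptl4 in the colon from 0.68 to 0.38. Their permutation p-values were 0.00098, 0.00216 and 0.00371 (adjusted 0.0274, 0.0363 and 0.0445), with rho of 0.71, 0.49 and 0.56 (rho permutation p = 0.0028, 0.0569 and 0.0270, adjusted 0.0417, 0.265 and 0.189), so that by rho only the first of them passed. The duodenum pairs of Acadm rest in part on the libraries left out. Ppara and Acadm in the ileum passed by rho alone (rho = 0.71, permutation p adjusted 0.0417, r = 0.64, permutation p adjusted 0.0689).

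Against the summed enterocyte markers 6 of 24 relations passed by r, all positive, and 4 by rho, of which 3 passed by both. In the ileum Creb3l3 had r = 0.89 (permutation p = 2e-05, adjusted p = 0.00048, rho = 0.79, rho permutation p = 0.00045, adjusted 0.0108, r = 0.83 without 2 libraries) and Ppara r = 0.74 (permutation p = 0.00108, adjusted p = 0.0130, rho = 0.73, rho permutation p = 0.00193, adjusted 0.0232, r = 0.59 without 2). In the duodenum Creb3l3 (r = 0.94, permutation p = 0.00241, adjusted p = 0.0168, rho = 0.31, rho permutation p = 0.244, adjusted 0.585) and Acadm (r = 0.84, permutation p = 0.0108, adjusted p = 0.0479, rho = 0.21, rho permutation p = 0.422, adjusted 0.723) rested on the 2 libraries farthest from the median, with r of -0.02 and -0.08 without them. In the colon Plin2 (r = 0.69, permutation p = 0.0028, adjusted p = 0.0168, rho = 0.66, rho permutation p = 0.00665, adjusted 0.0399) and Creb3l3 (r = 0.61, permutation p = 0.0120, adjusted p = 0.0479, rho = 0.54, rho permutation p = 0.0326, adjusted 0.157) fell to r = 0.50 and 0.39. Acadm in the ileum passed by rho alone (rho = 0.67, permutation p adjusted 0.0399, r = 0.59, permutation p adjusted 0.0542).

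**Figure D5:**
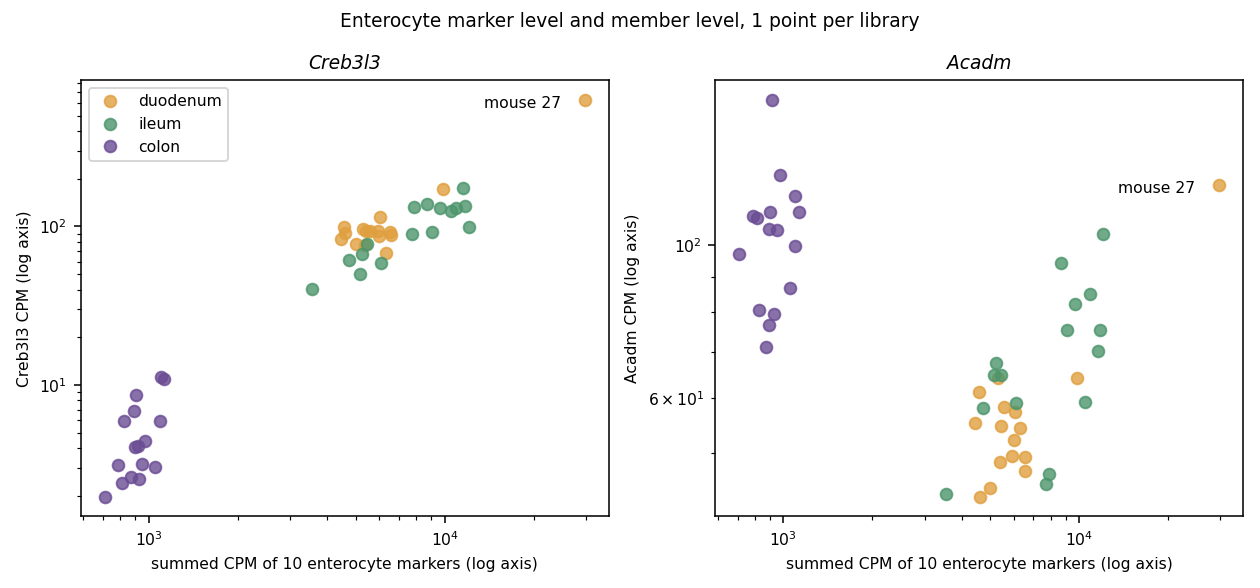
CPM of Creb3l3 and Acadm against the summed CPM of 10 enterocyte markers in each library, all axes logarithmic and colours for the regions. The duodenum library of mouse 27 lies alone at 29720 CPM of markers, and the ileum libraries of Creb3l3 rise with the markers (r = 0.89), while Acadm is high in the colon, where the markers are low.

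By the pattern over all 48 libraries, each centred on its region, the genes most like Creb3l3 were Bst1 (r = 0.86), Tor1aip2 (0.84) and Dgat1 (0.83). Those most like Acadm were 2200002D01Rik (0.83), Aldh2 (0.83) and Sult1b1 (0.81), and those most like Cpt1a were Atp13a3 (0.82), Hadha, a subunit of the mitochondrial trifunctional protein (0.77), and Trim2 (0.77). Ppara was nearest to Lrp1 (0.71), Spata2 (0.69) and Fzd5 (0.68), and Ucp2 to Ddr1 (0.65), Naf1 (0.65) and Grhl1 (0.60). Lower values were found for Angptl4, with Rps16 (0.63), the acyl-CoA thioesterase Acot1 (0.59) and Rdh7 (0.57), for Plin2, with Ptprc (0.59), Yes1 (0.58) and Gm13340 (0.56), and for Pdk4, with Prps1 (0.57), Rab23 (0.55) and Arhgdig (0.55). Of the genes named here Rps16, Ptprc and Gm13340 had low mean levels, at 0.69, 2.44 and 2.78 CPM. All these correlations are a description over libraries that share mice and sorts.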

How the data were processed

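The authors sorted NeuroD1-positive cells, made libraries from 2 ng of RNA with a stranded total RNA kit, and aligned single-end reads of 50 bases to GRCm38 with STAR 2.5.1 (versions from the submitters' processing notes). The authors deposited a table of whole-number read counts per Ensembl gene without normalization. The strand setting of the counting is not given in the sources used here. Of 53465 genes, 53360 matched GENCODE M21.

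Counts were tested with edgeR 4.0.16 in R 4.3.3 (filterByExpr over 9 groups, TMM, robust quasi-likelihood fit, Benjamini-Hochberg over 15126 genes). The standard error of a log2 fold change was its size over the root of the F statistic. CPM values used TMM library sizes, and correlations used log2 CPM with a prior count of 2 and 100000 permutations, two-sided. Alternatives were DESeq2 1.42.0 size factors or test, other filters, a block for the mouse (random in limma 3.58.1 voom, fixed in edgeR), the library index as covariate, counts summed per mouse, only the libraries compared, and omission of mice or libraries. The differences between regions of single surgery contrasts were added after the data were seen. The tests were tried on simulated data.

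Libraries with 1 mouse number come from 1 animal, by the labels, and so are paired across regions. Over 46 pairs, the deviations from the group means had a median correlation of 0.111 (range -0.070 to 0.391, 25 over 0.1). Surgery groups hold different mice. No libraries were duplicates (lowest chi-square per gene 8.24 over 105 pairs). Within a region each library of a group is another mouse, and correlations there were tested over the mice of that region. The edgeR p-values of surgery contrasts within a region used a dispersion estimated over the libraries of all regions. They therefore do not measure the spread between mice of that region alone, except in the alternative with only the libraries compared. Contrasts between regions or on the mean of the regions entered libraries of the same mouse as separate units. The mouse was taken into account only in the alternatives.

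The 8 genes and all lists were chosen with earlier results of these data known. Genes named are the 8, up to 2 genes of lowest p past the threshold per list and region contrast, every list gene called in a surgery contrast, and the 3 genes nearest to each of the 8. Angptl4 had wide intervals, and the part of depth in them was not tested. The results of 1 of the lists are not reported here.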

Additional observations from a re-analysis of the deposited data

Results flagged for a closer look

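Of 72 groups of 5 or 6 libraries (8 genes in 9 groups), 7 had a library far from the rest by Dixon's ratio, where chance flags about 1 in 20. In the duodenum of sham weight-matched mice mouse 27 was highest for Creb3l3 (626.7 CPM, the next 93.9 CPM) and for Acadm (122.0 CPM, the next 54.3 CPM), in the library with the enterocyte marker sum of 29720 CPM. Sham ad libitum mouse 32 was highest for Creb3l3 in the duodenum (172.7 CPM, the next 115.2 CPM) and, in the colon, for Cpt1a (362.1 CPM, the next 243.8 CPM) and Acadm (111.5 CPM, the next 86.6 CPM). In the colon of VSG mice mouse 11 was highest for Acadm (162.0 CPM, the next 117.8 CPM) and mouse 25 for Pdk4 (23.1 CPM, the next 15.6 CPM).

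For Ppara every VSG library lay below the sham ad libitum mean in the ileum and above it in the colon. The joint edgeR test of surgery by region gave an unadjusted p of 0.00293 and an adjusted p of 0.979 for Ppara, so that the difference missed the threshold.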

How the results depend on the processing

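The 59 results of the 8 genes were recomputed under 11 alternatives and with each of 17 mice left out. Among the 11 alternatives 9 calls were lost and 2 gained, and among the omitted mice 11 were lost and 1 gained. No fit called any of the 8 genes between surgery groups. Counts over all genes ranged, over the alternatives and omitted mice, from 0 to 226 for VSG against S_wm in the duodenum (34 as reported, 226 without S_wm mouse 31), and those for S_wm against S_al there reached 263 with the library index as covariate (0 as reported). With the mouse as a replicate block, random in voom or fixed in edgeR, the counts of genes called between regions stayed at 4, 7 and 8, and Angptl4 between ileum and duodenum changed sign (-0.36 and -0.22). With the random block Ucp2 for VSG against S_al was 0.0054 and Acadm for S_wm against S_al -0.00047 on the mean of the regions. The block changed no other call. With the library index as covariate 3 genes were called between colon and duodenum, where index and region could hardly be separated. Some signs turned with this covariate, none past the threshold. They were those of Acadm between ileum and duodenum (-0.11) and Ucp2 between colon and duodenum (-0.059). For VSG against S_al on the mean of the regions they were those of Ppara (0.0026), Pdk4 (-0.11), Acadm (0.084), Creb3l3 (0.21) and Ucp2 (0.023).

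Without the duodenum library of mouse 27 Creb3l3 was 0.087 between ileum and duodenum and 0.11 for VSG against S_wm in the duodenum. On the mean of the regions Acadm and Creb3l3 were then 0.043 and 0.12 for VSG against S_wm and -0.082 and -0.17 for S_wm against S_al. Without the ileum and colon of mouse 12 Angptl4 between ileum and duodenum was -0.12, and for VSG against S_al Pdk4 was -0.050, Acadm 0.0012 and Ucp2 0.0078. With counts summed per mouse Ppara was -0.065 and Ucp2 -0.038 for S_wm against S_al. The cause of these shifts was not tested beyond the samples left out.

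Leaving out each mouse in turn gave, between ileum and duodenum, -0.16 to 0.14 for Angptl4 and -0.42 to 0.11 for Creb3l3. For VSG against S_al it gave -0.086 to 0.18 for Pdk4, -0.085 to 0.0013 for Acadm, -0.24 to 0.13 for Creb3l3 and -0.036 to 0.041 for Ucp2. For VSG against S_wm the ranges were -0.15 to 0.015 for Acadm, -0.48 to 0.22 for Creb3l3 and -0.044 to 0.021 for Ucp2, and -1.33 to 0.11 for Creb3l3 in the duodenum, where only the fit without mouse 27 was positive. For S_wm against S_al they were -0.055 to 0.11 for Acadm, -0.27 to 0.42 for Creb3l3 and -0.027 to 0.054 for Ucp2. Correlated pairs numbered 2 to 10 and relations with enterocyte markers 2 to 7, the lowest without S_wm mouse 27 for pairs and without S_al mouse 32 for markers. Angptl4 had the lowest count of these genes in any library, with 3 counts in its lowest colon library. The part of depth in its results was not tested.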
